A study of Mus musculus with 2 samples.

Results

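The genes described here are 32 drivers and markers of the cell division cycle, taken by symbol from a list. They are 32 of 55536 genes in the gene tables, and all 32 symbols were found. They were grouped by the phase in which they act or peak: 9 belong to G1, 10 to S phase and 13 to G2 and mitosis (G2/M). The tissue was the adrenal gland of female mice of the hybrid strain B6CASTF1/J, aged 18 to 20 months, with no treatment, transgene or other genotype named in the labels. Total RNA was sequenced from 2 animals with 1 library each, so the series holds a single group and no control. The animals, 1 and 2, are numbered as the replicates are in the labels. The labels give both the same donor identifier, and a description of animal 2 carries the name of animal 1, so their being separate animals rests on the other fields. With 1 group no test between conditions was possible, and the smallest two-sided p of an exact sign-flip test over 2 animals is 0.5, so no p is given.

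Cells enter the cycle when D-type cyclins, which respond to growth signals, bind CDK4 or CDK6 and phosphorylate the retinoblastoma protein, which frees E2F factors. E2F factors switch on cyclin E and the genes of S phase, among them the MCM helicase and the enzymes that supply deoxynucleotides. Genes of G2 and mitosis follow later, and in resting cells both classes are held down by the DREAM complex, which binds CHR elements in many mitotic promoters. In the adrenal cortex, new steroid-producing cells come from progenitors under the capsule, and turnover in adult animals is slow. The level of these transcripts in a whole gland is a mean over many cells, so fewer dividing cells and less RNA per cell cannot be told apart.

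Promoter windows were compared by phase first, because members of a phase are known to share promoter elements. The windows come from RefSeq on build GRCm38.p6 and run from 250 bases before to 50 bases after a transcript start, 300 bases in all. They were found for 26 of the 32 members, with 28 windows, and Ccnd1, Ccnd2, Ccne2, Mcm4, Ccna2 and Aurkb had none. The E2F motif was searched as TTTCCCGC, TTTCGCGC, TTTGCCGC or TTTGGCGC, the CHR motif as TTTGAA or TTTAAA, and the CCAAT box as CCAAT, each on both strands. Matches may overlap each other, and each was counted. A match is only a run of letters and not a measured binding site.

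The 3 windows printed here were taken as the member with the highest level in each phase whose window held the motif searched for that phase, E2F for G1 and S and CHR for G2/M. Lower-case letters give the 250 bases before the start, 5′ to 3′ on the strand of the gene, and capitals mark each match to the E2F, CHR or CCAAT letters. The Cdk2 window lies at chr10:128705052-128705301 on the minus strand, Mcm6 at chr1:128359706-128359955 on the minus strand and Cdk1 at chr10:69352913-69353162 on the minus strand, all in mm10, the assembly also named GRCm38. Mcm7 stood higher than Mcm6, but its window with E2F letters lies inside annotated transcript Mcm7-201, so Mcm6 is shown in its place.
Cdk2: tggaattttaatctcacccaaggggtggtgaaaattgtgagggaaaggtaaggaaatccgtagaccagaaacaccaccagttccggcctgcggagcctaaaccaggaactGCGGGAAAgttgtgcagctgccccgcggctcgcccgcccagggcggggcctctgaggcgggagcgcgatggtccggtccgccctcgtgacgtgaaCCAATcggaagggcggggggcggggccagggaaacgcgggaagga
Mcm6: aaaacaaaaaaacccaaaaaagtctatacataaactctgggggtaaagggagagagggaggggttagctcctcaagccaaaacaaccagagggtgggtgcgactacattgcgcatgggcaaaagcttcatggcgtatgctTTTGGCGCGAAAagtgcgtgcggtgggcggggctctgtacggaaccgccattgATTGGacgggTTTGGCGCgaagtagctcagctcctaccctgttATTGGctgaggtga
Cdk1: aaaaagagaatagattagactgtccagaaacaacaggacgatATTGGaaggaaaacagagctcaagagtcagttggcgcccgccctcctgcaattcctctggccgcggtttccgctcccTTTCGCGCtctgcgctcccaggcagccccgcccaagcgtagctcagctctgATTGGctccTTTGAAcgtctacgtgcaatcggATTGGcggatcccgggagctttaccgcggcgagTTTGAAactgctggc

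Of the 11 G2/M windows, 10 held a CHR match and 10 a CCAAT box, and 9 held both. CHR letters, with or without CCAAT, were in 90.9% of G2/M windows, 30.0% of S windows and 14.3% of G1 windows. Their share was 27.6% of all windows and 25.0% of those of protein-coding genes. Bub1 had no CHR letters and Birc5 no CCAAT letters. The share with both was 81.8% in G2/M, 30.0% in S and 0 of 7 windows in G1, against 10.7% of all 32851 promoter windows and 9.95% of the 21263 windows of protein-coding genes. CCAAT boxes, with or without CHR letters, were in 9 of the 10 S windows and 37.4% of all windows. E2F letters were in 40.0% of the S windows, those of Mcm3, Mcm5, Mcm6 and Mcm7, in 14.3% of the G1 windows and in 9.09% of the G2/M windows, against 2.26% of all. The 7 G1 windows include that of E2f1, which held no match. It lies inside annotated transcript E2f1-201, 294 bases from the nearest annotated start, so the bases before that start were not searched. A pair of CCAAT boxes or more was in 9 of the 11 G2/M windows, 5 of the 10 S windows and 0 of the 7 G1 windows, against 11.7% of all.

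Within the 100 bases before the start, 5 of the 11 G2/M windows held both CHR and CCAAT letters, against 1.77% of all windows. They are those of Cdk1, printed above, and of Top2a, Cdc20, Ccnb1 and Plk1. The last 100 bases of these 4, chosen after the matches were seen, are given to show how close the elements lie. The Top2a stretch lies at chr11:99024190-99024289 on the minus strand, Cdc20 at chr4:118437344-118437443 on the minus strand, Ccnb1 at chr13:100786487-100786586 on the minus strand and Plk1 at chr7:122159335-122159434 on the plus strand.
Top2a: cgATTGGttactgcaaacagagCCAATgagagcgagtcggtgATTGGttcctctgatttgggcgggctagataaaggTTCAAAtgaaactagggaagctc
Cdc20: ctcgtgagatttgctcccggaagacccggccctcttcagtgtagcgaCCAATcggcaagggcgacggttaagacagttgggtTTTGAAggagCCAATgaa
Ccnb1: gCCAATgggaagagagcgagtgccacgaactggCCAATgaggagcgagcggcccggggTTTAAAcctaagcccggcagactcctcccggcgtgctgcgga
Plk1: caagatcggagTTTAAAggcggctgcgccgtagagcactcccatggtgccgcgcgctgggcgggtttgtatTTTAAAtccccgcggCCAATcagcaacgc

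**Figure D1:**
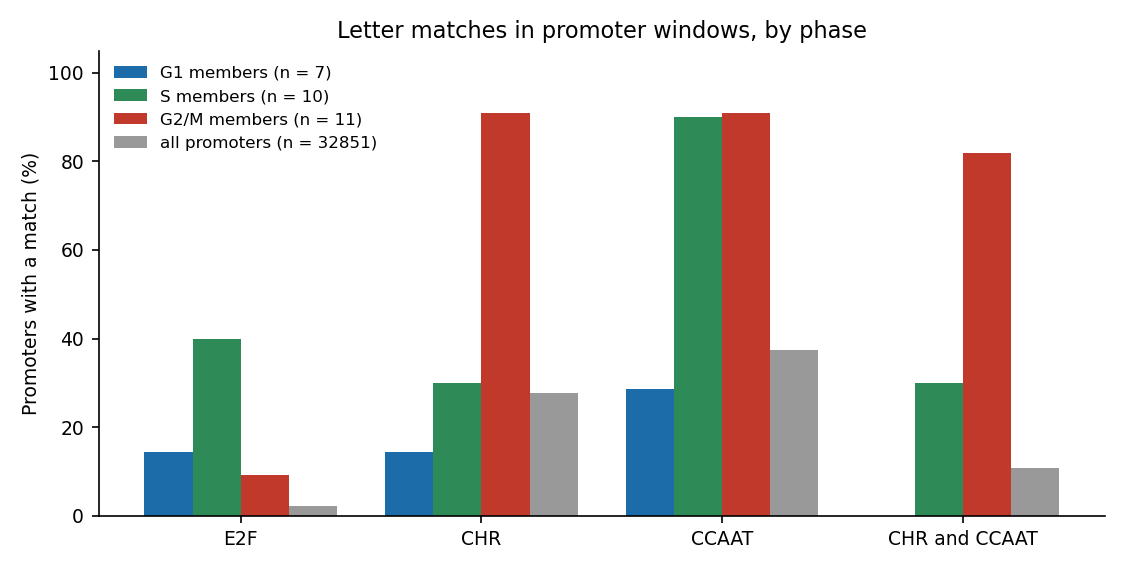
Share of promoter windows of 300 bases with letter matches (percent, vertical axis) for E2F, CHR, CCAAT and for CHR and CCAAT together. Bars stand for windows of G1, S and G2/M members and for all promoters. CHR and CCAAT letters together were in 81.8% of G2/M windows and 10.7% of all windows.

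Levels differed far more between phases than between the animals. Levels are given in TPM, the authors' unit, which scales transcript numbers to a fixed total per library and corrects for transcript length. The 9 G1 members summed to 477 TPM in animal 1 against 406 in animal 2, the 10 S members to 60.1 and 62.4 TPM, and the 13 G2/M members to 5.87 and 8.38 TPM. The G1 sum exceeded the G2/M sum 81.3-fold in animal 1 and 48.4-fold in animal 2, and the S sum exceeded it 10.2-fold and 7.45-fold. On the log2 scale these ratios averaged 5.97 ± 0.53 for G1 over G2/M and 3.13 ± 0.33 for S over G2/M (SD, n = 2). The gap between the G1 and S sums rests on the D cyclins. Without these 3 genes the G1 sum was 61.1 TPM in animal 1 against 66.4 in animal 2, close to the S sums. Of this, Cdk4 alone held 45.3 and 51.8 TPM. The median TPM per gene was 5.83 and 5.17 over all 9 G1 members and 5.22 and 4.03 in S. Without the D cyclins the G1 medians were 3.31 and 3.27, below those of S. G2/M had medians of 0.410 and 0.590 TPM and lay below both phases in each animal. The absolute sums depend on the table, since protein-coding genes held 35.3% of TPM in animal 1 and 37.7% in animal 2, against 71.6% and 71.1% in a second transcript table. There the sums were 875 and 694 TPM for G1, 125 and 127 TPM for S and 11.3 and 15.7 TPM for G2/M.

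A gene is called detected here at 1 TPM or more in both libraries, a level reached by 18 of the 32 members and by 52.4% of the 22028 protein-coding genes. By phase, 8 of 9 G1 members, 10 of 10 S members and 0 of 13 G2/M members reached it. The G2/M genes were low but not without reads. All 13 had expected counts (estimated reads or fragments per gene) of at least 10 in both libraries, against 64.2% of protein-coding genes. At a threshold of 0.5 TPM in both libraries 5 of the 13 passed, against 57.4% of protein-coding genes. At 1 TPM in animal 2 alone 1 of 13 passed, against 53.5%. Expected counts totalled 35769717 in animal 1 and 35135703 in animal 2, and a count of 0 would allow up to 3 counts.

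**Figure D2:**
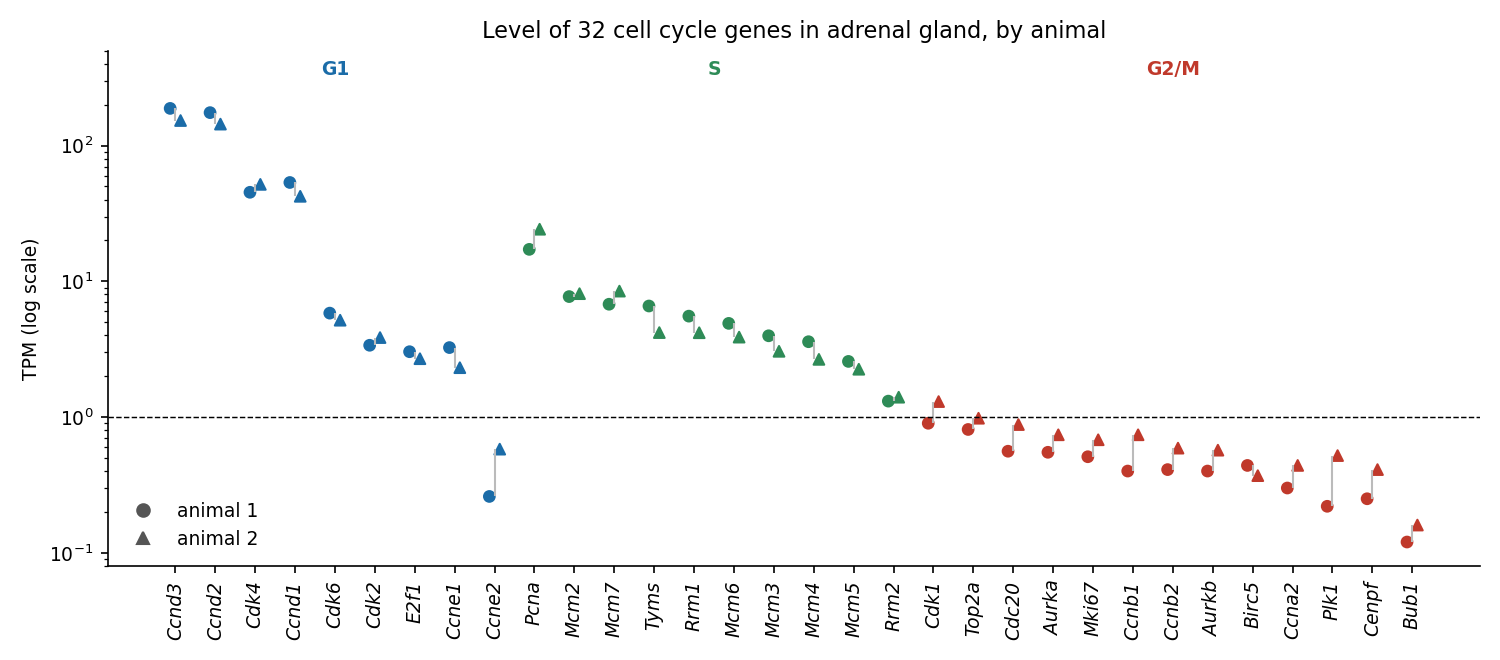
TPM of each of the 32 genes (log scale, vertical axis) in animal 1 (circles) and animal 2 (triangles), ordered within each phase by mean level, with a dashed line at 1 TPM. The D cyclins and Cdk4 stand at 42.3 TPM or more, and Cdk1 in animal 2 is the sole G2/M value above the line.

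The 3 D cyclins were the most abundant part of the group and held 76.6% of all member TPM in animal 1 and 71.2% in animal 2. Ccnd3, cyclin D3, had 188 TPM in animal 1 against 153 in animal 2 (ENSMUSG00000034165.16, mm10 chromosome 17, 47505051 to 47599691, plus strand). Ccnd2, cyclin D2, had 175 and 144 TPM (chromosome 6, 127125162 to 127152193, minus strand), and Ccnd1, cyclin D1, had 53.5 and 42.3 TPM (chromosome 7, 144929931 to 144939925, minus strand). In each gene animal 1 was the higher animal, and the ranks were the same in both. By mean level Ccnd3 ranked 277 and Ccnd2 ranked 293 among protein-coding genes, and Ccnd1 ranked 1163.

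Within a library Ccnd3 exceeded Ccnd2 by 0.09 ± 0.02 on the log2 scale (SD, n = 2), and Ccnd1 was below Ccnd2, with a log2 ratio of -1.74 ± 0.04. The order of Ccnd3 and Ccnd2 depends on the correction for length. Without it, expected counts were 13648 and 10102 for Ccnd3 and 25044 and 19488 for Ccnd2, a mean log2 ratio of -0.91.

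Among the kinases that act in G1, Cdk4, which pairs with D cyclins, had 45.3 TPM in animal 1 against 51.8 in animal 2. Cdk6, its close relative, had 5.83 and 5.17 TPM. Cdk4 thus stood 3.14 ± 0.26 above Cdk6 on the log2 scale (SD, n = 2), and the animals lay on the same side. This gap was 1.37 when TPM of protein-coding transcripts alone were used, and 0.34 in expected counts without length correction. Cdk2, the partner of cyclins E and A, had 3.38 TPM in animal 1 against 3.85 in animal 2.

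The E cyclins, which activate Cdk2 at the start of S phase, were low. Ccne1 had 3.25 TPM in animal 1 against 2.31 in animal 2, and Ccne2 had 0.260 and 0.580 TPM from 21 expected counts in each library. Ccne2 was the G1 member below 1 TPM. E2f1, an activating E2F factor, had 3.03 and 2.69 TPM.

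Members of S phase filled the range between 1.35 and 20.7 TPM in mean level. Pcna, the sliding clamp of DNA polymerase, led them with 17.2 TPM in animal 1 against 24.2 in animal 2 (ENSMUSG00000027342.14, chromosome 2, 132249162 to 132253314, minus strand). The 6 subunits of the MCM helicase, Mcm2 to Mcm7, summed to 29.5 TPM in animal 1 against 28.4 in animal 2. Their means ran from 2.41 TPM for Mcm5 to 7.91 TPM for Mcm2, with 7.62 for Mcm7, 4.39 for Mcm6, 3.51 for Mcm3 and 3.12 for Mcm4. The proteins form a ring that unwinds DNA at the fork.

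Rrm1, the large subunit of ribonucleotide reductase, had 5.54 TPM in animal 1 against 4.18 in animal 2. Its small subunit Rrm2 had 1.31 and 1.40 TPM, and Rrm1 over Rrm2 was 1.83 ± 0.36 on the log2 scale (SD, n = 2). Tyms, the thymidylate synthase, had 6.58 TPM in animal 1 against 4.19 in animal 2.

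The G2/M members stood between 0.140 and 1.10 TPM in mean level. Cdk1, the kinase that drives entry into mitosis, had 0.900 TPM in animal 1 against 1.30 in animal 2, from 38 and 39 expected counts (ENSMUSG00000019942.13, chromosome 10, 69335146 to 69352938, minus strand). Its mean level ranked 11704 among the protein-coding genes. Mki67, which encodes the antigen Ki-67 that is present in all active phases of the cycle, had 0.510 and 0.680 TPM from 199 and 241 counts (chromosome 7, 135689784 to 135716361, minus strand). Top2a, the topoisomerase that untangles replicated chromosomes, had 0.810 TPM in animal 1 against 0.980 in animal 2 from 109 and 147 counts. Both genes were higher in animal 2.

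The mitotic cyclins were close to each other. Ccnb1 had 0.400 TPM in animal 1 against 0.740 in animal 2, Ccnb2 had 0.410 and 0.590 TPM, and Ccna2, which acts in S phase and G2, had 0.300 and 0.440 TPM. Ccnb1 over Ccnb2 was 0.15 ± 0.26 on the log2 scale (SD, n = 2), with opposite signs in the 2 animals, so their order is not separable.

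Of the mitotic kinases, Aurka, which acts at spindle poles, had 0.550 TPM in animal 1 against 0.740 in animal 2, and Aurkb, which acts at centromeres, had 0.400 and 0.570 TPM. Plk1, a kinase of many mitotic steps, had 0.220 TPM in animal 1 against 0.520 in animal 2. The checkpoint kinase Bub1 was the lowest member with 0.120 and 0.160 TPM from 14 counts in each library. Cdc20, an activator of the anaphase-promoting complex, had 0.560 and 0.880 TPM. Birc5, the survivin subunit of the Aurora B complex, had 0.440 and 0.370 TPM, and the centromere protein Cenpf had 0.250 and 0.410 TPM. Birc5 was the sole G2/M member with a higher value in animal 1.

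The medians of the early and the late phases lay on opposite sides of 0 between the animals, and most single genes differed by less than 1.5-fold. The ratio used here is that of animal 1 over animal 2 in expected counts scaled by TMM (a normalisation that assumes that most genes are alike), on the log2 scale, so negative values are higher in animal 2. G1 members had a median of 0.26 and S members of 0.32, while G2/M members had a median of -0.45, against 0.01 over all 17024 genes whose mean count reached 10. In G1 6 of 9 members and in S 6 of 10 were higher in animal 1, against 51.3% of all genes. In G2/M 1 of 13 members was higher in animal 1 and 12 were higher in animal 2. The genes come from the same 2 libraries, so they are not independent observations.

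For most G2/M members the difference was within counting error. The exact 95% counting interval of the ratio left out 1 in 3 of 13 G2/M members, all higher in animal 2, against 25.9% of all genes that were higher in animal 2 by this rule. Of the 19 G1 and S members it left out 1 in 11 with higher values in animal 1, namely Ccnd1, Ccnd2, Ccnd3, Cdk6, Ccne1, Mcm3, Mcm4, Mcm5, Mcm6, Rrm1 and Tyms, against 26.9% of all genes in that direction. Pcna was the member of these phases with an interval on the other side. The interval covers counting error and not the spread between animals, which 1 library per animal cannot give for a gene.

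Few members stood far apart. With a fold of at least 1.5 and an interval that leaves out 1, 0 of 32 members were higher in animal 1, against 8.54% of all genes. 1 member, Cenpf, was higher in animal 2, against 6.83% of all genes. Under a rule of at least 2-fold, a mean count of 50 and separate deposited TPM intervals, 0 of the 21 members with that count passed, against 3.46% of all genes with that count.

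Cenpf had 56 counts in animal 1 and 80 counts in animal 2, a log2 ratio of -0.59 (95% counting interval -1.12 to -0.09), or 1.51-fold higher in animal 2. It fell short of the rule with DESeq2 size factors and in the second transcript table, where 0 members passed in that direction. Plk1 was further apart at -0.85, from 18 and 31 counts, but its interval of -1.79 to 0.02 holds 0. Top2a had a log2 ratio of -0.51 (-0.89 to -0.15) and Mki67 of -0.36 (-0.64 to -0.08). For Pcna the ratio was -0.43 (-0.55 to -0.30), from 942 and 1197 counts. Its deposited TPM intervals were 16.0 to 18.3 in animal 1 and 22.6 to 25.4 in animal 2.

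In the other direction Tyms had a log2 ratio of 0.52 (0.22 to 0.83), Mcm4 of 0.48 (0.27 to 0.68) and Ccne1 of 0.42 (0.10 to 0.75). The D cyclins had ratios of 0.40 for Ccnd1, 0.35 for Ccnd3 and 0.28 for Ccnd2. The remaining MCM genes divided, with Mcm6 at 0.40, Mcm3 at 0.36 and Mcm5 at 0.28 and with Mcm2 at -0.13 and Mcm7 at -0.10. The last pair had intervals that hold 0.

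**Figure D3:**
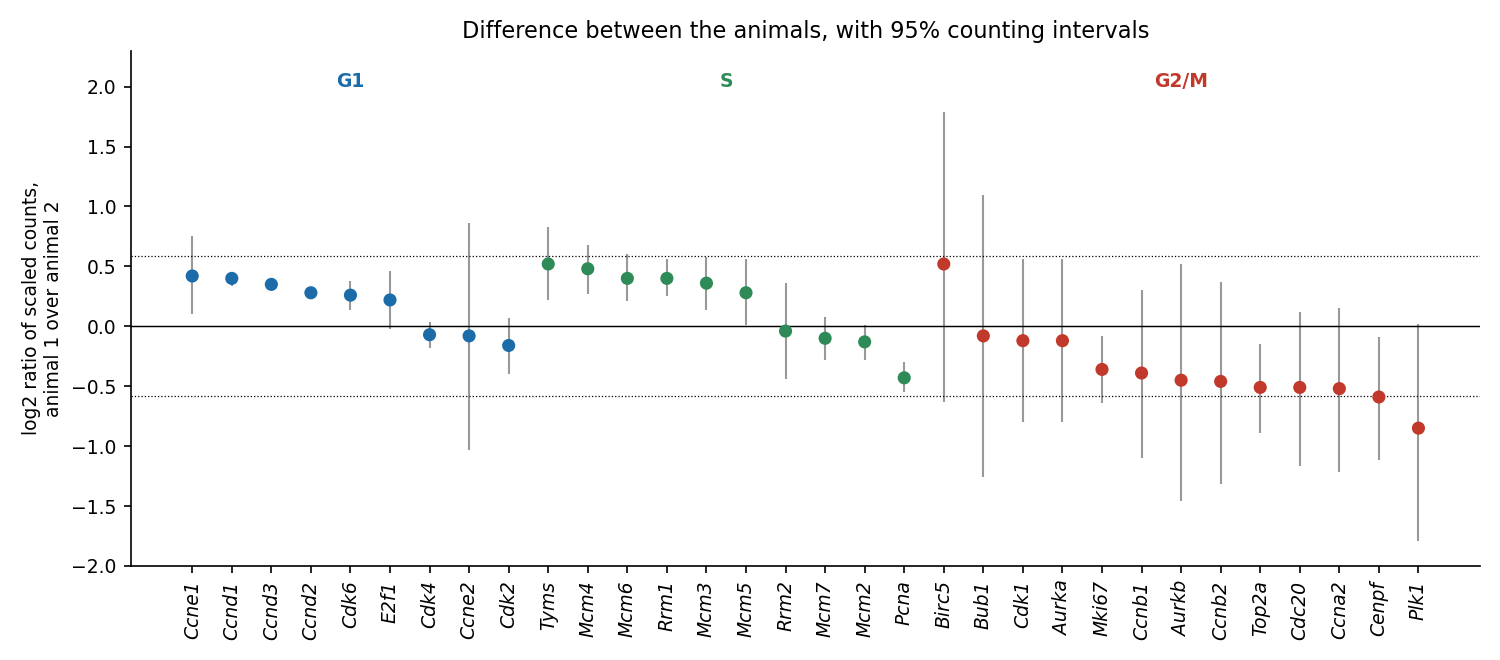
Log2 ratio of scaled counts of animal 1 over animal 2 (vertical axis) for each gene, ordered within its phase, with 95% counting intervals as bars. The solid line is 0 and the dotted lines mark 1.5-fold. G2/M members lie below 0 except Birc5, whose interval holds 0.

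The size of these ratios depends on the scaling. When spike-in totals took the place of TMM, the median of all genes moved to -0.21, and the medians were 0.04 in G1, 0.10 in S and -0.67 in G2/M. A change of library totals shifts every gene by the same amount. Under such a change the medians relative to all genes are fixed at 0.25 in G1, 0.31 in S and -0.46 in G2/M. They did move with the counts used. In the second transcript table they were 0.28 in G1, 0.16 in S and -0.28 in G2/M, and by TPM ratios 0.22, 0.30 and -0.39. With spike-in totals 12 of 13 G2/M members were higher in animal 2, against 70.9% of all genes. Under that scaling 6 of the 32 members, all higher in animal 2, met the 1.5-fold rule, against 14.1% of all genes. Over 6 combinations of table and scaling, 11 of 13 G2/M members were higher in animal 2 in each. Most of the 6 use the same counts and differ only in library totals, so they are not separate checks. Aurka had a ratio of 0.01 in the second transcript table, and Birc5 was higher in animal 1 in all 6.

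Markers of several other cell types also moved between the libraries, and their part in the ratios of the members was not tested. The 5 genes of MHC class II presentation summed to 86.6 TPM in animal 1 against 219 in animal 2, and all 5 were higher in animal 2. The 8 macrophage markers summed to 115 and 136 TPM, with 7 higher in animal 2. B and plasma cell markers summed to 59.0 TPM in animal 1 against 14.4 in animal 2, with 9 of 9 higher in animal 1. Striated muscle genes summed to 168 and 0.350 TPM, and Ckm, Myh2, Myh4 and Atp2a1 were listed at 0 in animal 2. The 9 T cell markers summed to 1.54 and 1.59 TPM, and the 6 kidney markers to 1.40 and 1.69 TPM. Endothelial markers summed to 163 TPM in animal 1 against 182 in animal 2, with 5 of 7 higher in animal 2 and a median ratio of -0.09. Fibroblast and capsule markers summed to 144 and 135 TPM, with 6 of 7 higher in animal 1. Adipocyte markers summed to 3268 TPM in animal 1 against 2089 in animal 2, with 7 of 7 higher in animal 1, erythroid genes to 2056 and 1577 TPM with 5 of 5, and liver genes to 17.4 and 6.92 TPM with 4 of 4. All 7 markers of the cortex and all 5 of the medulla were detected in both libraries. The cortex list summed to 15669 TPM in animal 1 against 20106 in animal 2, with 4 of 7 higher in animal 2, and the medulla list to 1796 and 1517 TPM, with 5 of 5 higher in animal 1.

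Transcripts not annotated as protein-coding took a large part of some members. Across the 32 genes the median share of a gene's TPM on transcripts annotated as protein-coding was 96.1% in animal 1 and 91.2% in animal 2. It was 94.4% and 92.0% over detected protein-coding genes. Over all protein-coding genes with TPM above 0, detected or not as the members are, it was 96.9% and 95.1%. Cdk4 was at 36.8% in animal 1 and 23.0% in animal 2. Its most abundant transcript in TPM was Cdk4-209, a retained intron form of 468 bases, with 16.1 and 22.2 TPM. A form annotated for nonsense-mediated decay, Cdk4-208, followed with 8.69 and 11.0 TPM. The order differed in expected counts, with 232 and 291 for Cdk4-209 and 279 and 321 for Cdk4-208. The coding form Cdk4-201, of 2053 bases, had 403 and 178 counts and led in animal 1, while Cdk4-208 led in animal 2. In expected counts, which do not raise short transcripts, the coding share of Cdk4 was 54.5% and 34.2%.

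Tyms had coding shares of 58.7% in animal 1 and 28.9% in animal 2, and its decay form Tyms-205 had 2.08 and 2.23 TPM. For Ccne2 the share was 69.2% in animal 1 and 27.1% in animal 2, on 21 counts in each. E2f1, Mcm4, Rrm2, Ccna2, Ccnb2, Mki67 and Birc5 were at 100% in both animals. In G2/M genes the share rests on few reads. In Ccnb1, for example, the retained intron form Ccnb1-205 had 0 and 3 expected counts but 29.7% of the gene's TPM in animal 2.

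The main transcript also depended on the quantification in Ccnd3, whose gene spans 2 start regions in the promoter table. Ccnd3-205, which begins at base 47593470, held 97.4% of the gene's TPM in animal 1 and 93.3% in animal 2. In the second transcript table it held 22.4% and 25.2%, while Ccnd3-215, which begins at base 47505119, had 123 and 64.3 TPM there and 0 and 1.87 TPM in the first. Ccnd3-218, which begins at base 47505149, had 70.9 and 76.4 TPM in the second table and 0 in the first. In the second table the leading transcript was thus Ccnd3-215 in animal 1 and Ccnd3-218 in animal 2. Ccnd1-201 held 91.6% and 90.4% of Ccnd1, and the long form Ccnd2-201 held 55.7% and 57.4% of Ccnd2.

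Processed pseudogenes could share reads with some members. Pcna-ps2 had 49 counts in animal 1 and 59 in animal 2, against 942 and 1197 for Pcna. Ccnb1-ps had 2 and 6 counts, against 33 and 41 for Ccnb1, and Ccnb2-ps had 4 and 3, against 23 and 30 for Ccnb2. Ccnd3-ps, Tyms-ps and Pcna-ps1 had 1 count or none in each library.

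Further genes of the cycle were described by 8 lists with 140 measured genes, none of them members. Of these, 84 (60.0%) were detected, against 52.4% of protein-coding genes, the share to set beside each list below. Over the 136 whose mean count reached 10 the median log2 ratio was 0.01. At least 1.5-fold apart by the rule above were 9 with higher values in animal 1 and 7 with higher values in animal 2, beside the 8.54% and 6.83% of all genes given above.

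Among the brakes of the cycle a single gene held most of the RNA. The 10 genes summed to 466 TPM in animal 1 against 318 in animal 2, with medians of 9.82 and 7.85 TPM. Of the 10 CDK inhibitors and retinoblastoma family genes 9 were detected, with a median ratio of 0.32. Of the 10, 8 were higher in animal 1, against 51.3% of all genes, and 2 in animal 2. Cdkn1c, an imprinted CDK inhibitor, had 377 TPM in animal 1 against 231 in animal 2, more than any of the 32 members, and passed the 1.5-fold rule. Cdkn1a, the p53 target p21, had 20.4 and 30.3 TPM, and Cdkn2c, an inhibitor of Cdk4 and Cdk6, had 21.9 and 16.8 TPM. Cdkn2a, a senescence-linked inhibitor locus, had 12.7 TPM in animal 1 against 2.71 in animal 2, a log2 ratio of 2.26 (1.91 to 2.65), and passed the 2-fold rule.

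Of the 18 E2F, DREAM and MuvB genes 13 were detected, with a median ratio of -0.10. Rbbp4, a histone-binding subunit, had 39.9 TPM in each animal, Tfdp2, a dimer partner of E2F factors, averaged 19.6 ± 2.04 TPM, and Lin37, a MuvB subunit, 16.5 ± 2.05 TPM (SD, n = 2). E2f2, an activating E2F factor, had 1.15 TPM in animal 1 against 0.560 in animal 2 and passed the 2-fold rule with a log2 ratio of 1.08. The activators of mitotic genes stayed below 1 TPM, with Foxm1 at 0.450 and 0.580 TPM and Mybl2 at 0.450 and 0.560 TPM. Those last genes were named after their values were seen.

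The lists of S phase had positive medians. Origin licensing and firing had a median of 0.21 with 12 of 18 genes higher in animal 1, against 51.3% of all genes. Replication fork and nucleotide supply had 0.18 with 18 of 25. The highest of the first were the origin recognition subunits Orc4, which averaged 19.2 ± 2.57 TPM (SD, n = 2), and Orc3, with 15.3 TPM in animal 1 against 14.6 in animal 2, and then the helicase subunit Gins4, with 9.98 and 7.30 TPM. The highest of the second were Rfc1, a subunit of the clamp loader, with 14.3 and 13.2 TPM, Rpa1, which binds single-stranded DNA, with 16.1 and 12.0 TPM, and the histone mRNA binding protein Slbp, with 9.15 and 15.3 TPM. Slbp passed the 1.5-fold rule, with a log2 ratio of -0.65.

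The mitotic lists were mixed. Kinetochore and spindle checkpoint genes had a median of -0.30 with 11 of 15 higher in animal 2, against 48.7% of all genes. Genes of spindle, condensin and cytokinesis had -0.21 with 15 of 20. In the spindle list 3 of 20 were detected, Smc4 with 6.83 TPM in animal 1 against 8.05 in animal 2, Ncapd2 with 3.33 and 4.61 TPM, both condensin subunits, and Smc2, their partner, with 1.86 and 2.28 TPM. The checkpoint list was led by Zwint, with 44.0 and 48.7 TPM, Bub3, with 19.7 and 20.8 TPM, and Mad1l1, with 5.21 and 3.44 TPM. Mitotic entry had a median of 0.11 and was led by Ensa, with 25.4 and 31.8 TPM, Cdk7, with 11.4 and 11.1 TPM, and its cyclin Ccnh, with 12.0 and 10.7 TPM.

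Of 16 genes of the anaphase-promoting complex and mitotic exit 13 were detected, with a median ratio of -0.01 and 8 higher in each animal. Counting intervals left out 1 in 2 of the 16 genes with higher values in animal 1, against 26.9% of all genes. They did so in 4 of the 16 with higher values in animal 2, against 25.9% of all genes. Ube2c, a ubiquitin-conjugating enzyme of mitosis, met the 1.5-fold rule, with a log2 ratio of -1.22 (-2.16 to -0.38) from 17 and 38 counts. In the other mitotic lists Nek2 (1.31) and Incenp (0.87) met it with higher values in animal 1. Ttk (-1.32) met it with a higher value in animal 2. All of these were named after their values were seen. The 16 genes were led by Anapc5, with 42.6 TPM in animal 1 against 44.6 in animal 2, the ubiquitin-conjugating enzyme Ube2s, with 29.5 and 38.7 TPM, and Anapc11, with 27.9 and 28.8 TPM.

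**Figure D4:**
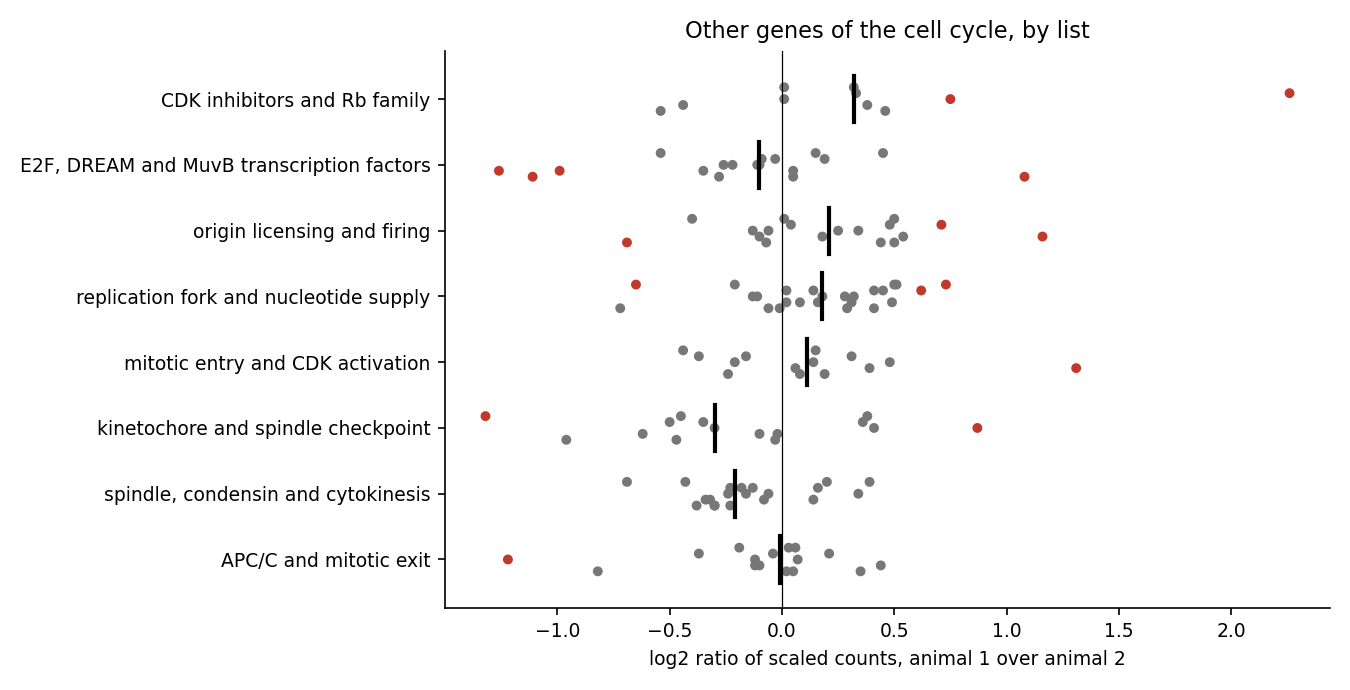
Log2 ratio of scaled counts of animal 1 over animal 2 (horizontal axis) for single genes of 8 lists whose mean count reached 10 (points), with list medians as bars. Red points passed the 1.5-fold rule. Medians run from -0.30 for the kinetochore list to 0.32 for CDK inhibitors.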

How the data were processed

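Total RNA of 2 adrenal glands (300 ng, reduced for ribosomal RNA, with spike-in RNAs added) was sequenced with 1 library per animal, per the labels. The authors deposited expected counts, TPM and TPM interval bounds per gene from an alignment to transcripts, and estimated counts and TPM per transcript from a second program, on mm10 with GENCODE M21, per the file headers and the notes beside them. The deposited bounds of TPM, a signal whose interval level no source used here states, come from a separate estimate, and a few low TPM values lie outside their own bounds. Versions of the authors' programs: not given in the sources used here.

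Expected counts were rounded and 96 spike-in and 26248 other entries without a gene identifier were left out. Library totals were scaled by TMM (edgeR 4.0.16, R 4.3.3), with 0.5 added to counts for the log2 ratio of animal 1 over animal 2, and exact conditional (Clopper-Pearson) 95% intervals were computed, which cover counting error only. The steps were tested on simulated counts drawn with counting error only. That test does not cover spread between animals or the assignment of reads to transcripts. Mean ± SD is over n = 2 animals. The sources used here name no molecular identifiers, so reads need not stand for separate molecules.

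The members, lists and rules were chosen with earlier results of these data known. All 32 members are named. Of each further list the 3 genes with the highest mean TPM and any gene past the 2-fold rule (at least 2-fold, mean count of 50, separate deposited TPM intervals) are named, and others are marked. The alternatives tried were DESeq2 1.42.0 size factors, spike-in totals, TMM over protein-coding genes, other count minimums, the second table, TPM ratios, coding transcripts alone and leaving out each animal. Sequences of proteins were not used here.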

Additional observations from a re-analysis of the deposited data

How the results depend on the processing

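Directions by phase held under most settings, several of which differ only in library totals, but levels and counts moved. Mean summed TPM in the second transcript table was 924 for all members, 785 for G1, 126 for S and 13.5 for G2/M, and scaled to nuclear protein-coding genes it was 1692, 1465, 203 and 23.5. Detected G2/M genes numbered 5 at a TPM of 0.5 (57.4% of protein-coding genes) and 1 at 1 TPM in either animal (55.2%). They numbered 5 in the second table (57.1%) and 13 at a count of 10 (64.2%), where all 32 members passed. With animal 1 left out 1 was detected (53.5%), and with animal 2 left out 0 (54.1%). Members at least 1.5-fold higher in animal 2 numbered 0 with DESeq2 size factors (6.60% of all genes) and in the second table (7.41%), 2 with TMM over protein-coding genes, both in G2/M (7.39%), 6 with spike-in totals, 5 in G2/M and 1 in S (14.1%), and 2 by TPM ratios, both in G2/M (7.47%), where 1 S gene was higher in animal 1 (6.85%). With spike-in totals the median log2 ratios were 0.04 in G1 and 0.10 in S. With a mean count of 50 the median of all members turned to 0.26, because 3 G2/M genes were left.

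In the second table the mean log2 ratios were -1.63 for Ccnd1 over Ccnd2, 0.40 for Ccnd3 over Ccnd2, 3.60 for Cdk4 over Cdk6, -0.24 for Ccnb1 over Ccnb2 and 2.39 for Rrm1 over Rrm2. Without length correction these were -1.90, -0.91, 0.34, 0.48 and 2.67, and S over G2/M was 2.75. With coding transcripts alone the first 4 were -1.65, 0.29, 1.37 and -0.33. Leaving out an animal gave -0.04 to 0.33 for Ccnb1 over Ccnb2. The median coding share in the second table was 95.9% in G1 and 85.5% in S. The causes of these moves were not tested beyond what each setting changes.

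No paired analysis was possible because the series holds 1 group. Leaving out an animal gives no ratio between animals. G2/M genes with 11 to 50 counts limit the precision of single ratios.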
